A study of Mus musculus with 24 samples.

Results

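Pth1r, Vdr, Ghr, Esr1, Nr3c1 and Lepr encode the receptors through which parathyroid hormone, active vitamin D, growth hormone, oestrogen, glucocorticoids and leptin act on bone cells. The 6 genes were taken by symbol from a count table of 54232 genes, and all 6 passed the filter on low counts that left 16592 genes for testing. RNA came from osteoblast cultures grown from the pooled calvariae (skull caps) of newborn mice, from high bone mass (HBM) mice and from wild-type (WT) mice. Each genotype had 3 independent pooled cultures, in batches numbered 18, 19 and 21, and polyadenylated RNA was sequenced from every culture at days 0, 10, 15 and 21 of osteoblast differentiation. This gave 24 libraries in 8 groups of 3. Which mutation the HBM mice carry, which strain they are and which hormones the medium held are points the sources used here leave out.

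The receptors fall into 3 kinds. PTH1R sits in the cell membrane and couples through G proteins mainly to cyclic AMP. It is the target of parathyroid hormone, which builds or removes bone depending on how it is given. VDR, ESR1 and NR3C1 are nuclear receptors, which bind DNA once their small hormone has reached them inside the cell. GHR and LEPR are single-pass cytokine receptors that signal through the JAK2 kinase and STAT proteins, and Lepr also marks stromal cells of the adult bone marrow.

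Between day 0 and day 10 the receptors took different courses. Pth1r was 5.58-fold higher at day 10 in HBM cultures and 2.08-fold higher in WT cultures. In WT cultures it did not pass in edgeR's main model, which leaves out that each culture was sampled on every day. With the culture as a replicate block the WT rise passed (adjusted p = 0.00124, edgeR), beside 38.5% of all genes. Lepr was 3.07-fold lower in HBM and 4.98-fold lower in WT cultures. Ghr and Nr3c1 were 1.86-fold and 1.60-fold higher in WT cultures, and 1.58-fold and 1.23-fold higher in HBM cultures, where they did not pass. Vdr and Esr1 passed the test in neither genotype. The HBM call of Lepr and the WT call of Ghr were lost when some single libraries were left out. No receptor passed the test of a genotype difference in this change. None of the 6 receptors passed the test between HBM and WT cultures on any day. Within batches Pth1r and Lepr were higher in HBM cultures, and Ghr was lower, in 9 of 9 pairs from day 10 on. These are 3 pairs of cultures sampled on 3 days, not 9 independent pairs. The share of all genes with such agreement is not given here.

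The libraries held 28039095 to 46987734 counts in genes. The 7 osteoblast markers each had counts above 0 in every library, with a summed level of 30478 to 213076 CPM, counts scaled to a common sequencing depth. At day 0 Bglap, among the 7, averaged only 0.0999 CPM in HBM and 0.133 CPM in WT cultures. Cultures with the same batch number deviated together. Batch 21 held at most 0.0328 CPM of Xist, the RNA of the inactive X chromosome in female cells, and the other batches held 18.0 to 528 CPM. Markers of macrophages and of adipocytes were higher at day 10 than at day 0 in every culture, as the receptor levels also changed. The 7 macrophage markers summed to 1469 to 10460 CPM in HBM and 2537 to 7831 CPM in WT cultures at day 10, and to 41.2 to 953 CPM in HBM and 53.2 to 1168 CPM in WT cultures at day 0, with batch 21 the highest in each group. The day 0 libraries of batch 19 held the most RNA of 6 cartilage markers, at 9006 CPM in the HBM culture and 16550 CPM in the WT culture, against 858 to 4023 CPM in the other 4 day 0 libraries. Fewer cells of a type and less RNA per cell cannot be told apart in such bulk cultures, and the part of these differences in any receptor's level was not tested unless a value without the library is given.

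Promoter windows are shown for Pth1r and Lepr, the receptors that passed the test between days 10 and 0 in HBM cultures, upward and downward, for their sequence context. RefSeq windows on GRCm38.p6, from 250 bases before to 50 bases after an annotated start, were given for 5 of the 6 receptors, all but Nr3c1. Pth1r has 3 annotated starts on the minus strand, at chr9:110747096-110747395, chr9:110743637-110743936 and chr9:110742561-110742860, and Lepr has 2 on the plus strand, at chr4:101717157-101717456 and chr4:101717656-101717955. Each is printed 5′ to 3′ on the gene's strand, and capitals mark GGGCGG, the core of the GC box, on either strand.
Pth1r start 1: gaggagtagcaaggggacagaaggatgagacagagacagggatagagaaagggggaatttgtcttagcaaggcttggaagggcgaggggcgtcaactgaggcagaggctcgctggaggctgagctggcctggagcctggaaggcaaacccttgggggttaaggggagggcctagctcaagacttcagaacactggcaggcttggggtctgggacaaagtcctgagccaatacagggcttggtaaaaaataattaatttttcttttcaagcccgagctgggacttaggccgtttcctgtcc
Pth1r start 2: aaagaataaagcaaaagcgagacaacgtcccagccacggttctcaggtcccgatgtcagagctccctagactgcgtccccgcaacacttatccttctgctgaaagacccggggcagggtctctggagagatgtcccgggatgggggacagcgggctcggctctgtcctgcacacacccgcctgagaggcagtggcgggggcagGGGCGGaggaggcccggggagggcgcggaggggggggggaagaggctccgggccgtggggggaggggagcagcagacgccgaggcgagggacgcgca
Pth1r start 3: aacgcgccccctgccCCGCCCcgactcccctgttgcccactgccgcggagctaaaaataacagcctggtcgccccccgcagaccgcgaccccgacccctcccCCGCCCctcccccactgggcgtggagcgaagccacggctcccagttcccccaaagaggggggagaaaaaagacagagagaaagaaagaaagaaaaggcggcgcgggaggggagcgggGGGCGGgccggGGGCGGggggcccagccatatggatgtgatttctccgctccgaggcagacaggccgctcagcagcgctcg
Lepr start 1: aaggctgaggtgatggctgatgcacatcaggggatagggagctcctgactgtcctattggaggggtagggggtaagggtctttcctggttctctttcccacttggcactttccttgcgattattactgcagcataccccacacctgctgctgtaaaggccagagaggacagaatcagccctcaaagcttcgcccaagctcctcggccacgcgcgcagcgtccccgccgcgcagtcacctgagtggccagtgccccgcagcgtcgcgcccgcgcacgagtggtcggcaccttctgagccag
Lepr start 2: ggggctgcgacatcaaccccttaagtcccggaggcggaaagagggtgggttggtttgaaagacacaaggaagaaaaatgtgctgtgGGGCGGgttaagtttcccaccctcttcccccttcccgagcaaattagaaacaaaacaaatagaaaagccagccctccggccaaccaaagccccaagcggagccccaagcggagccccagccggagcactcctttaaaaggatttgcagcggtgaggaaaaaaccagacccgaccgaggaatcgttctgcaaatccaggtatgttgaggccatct

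The GC box letters occurred 0, 1 and 4 times in the 3 Pth1r windows, whose GC content was 54.3%, 68.0% and 69.3%, and 0 and 1 times in the Lepr windows, with 61.3% and 54.3%. Of all 32851 RefSeq windows of this length, 35.7% held GGGCGG on at least 1 strand. The letters TGTGGT or TGCGGT (bound by RUNX factors), found in 22.4% of all windows, AGGTCA (a nuclear receptor half-site), found in 16.3%, and TGACGTCA (the cyclic AMP response element), found in 1.79%, were in none of the 10 windows of the 5 receptors on either strand. The gene-level counts do not say which start was used.

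Set against each other per kilobase of exon, which allows levels of different genes to be compared, Pth1r was the most abundant of the 6 over the 24 libraries, at 47.2 CPM per kb, above 94.9% of the 16584 genes with an annotated length. Nr3c1 followed at 19.5 CPM per kb, above 86.6% of genes, then Vdr at 7.31 and Ghr at 6.31 CPM per kb, above 67.5% and 64.1%. Lepr had 2.63 CPM per kb, above 45.0% of genes. Esr1 was at the low end, with 0.184 CPM per kb, above 11.7% of genes, and its counts ran from 16 to 241 per library.

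**Figure D1:**
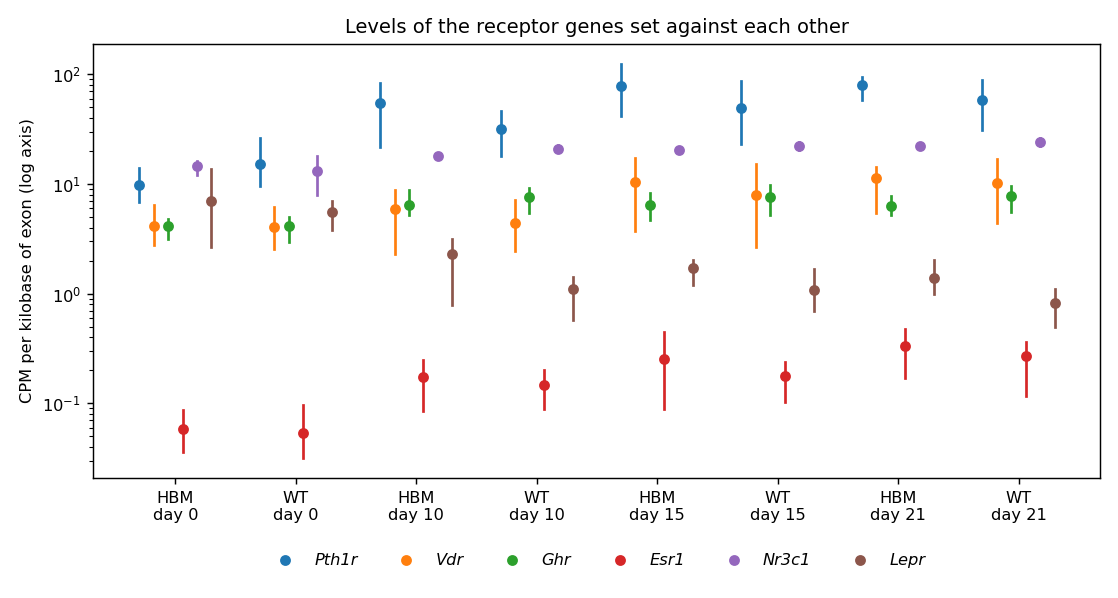
Mean level of each receptor gene per group, in CPM per kilobase of exon on a log axis, with a line from the lowest to the highest of 3 libraries, HBM left of WT at each day. Pth1r led from day 10 on in every group, Esr1 was lowest in every group, and Lepr ranked 3 by mean at day 0 and 5 from day 10 on.

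The order changed with differentiation. At day 0, Nr3c1 led in HBM cultures, at 14.6 ± 2.2 CPM per kb, against 9.83 ± 3.66 for Pth1r (SD, n = 3), and the ranges of these neighbours overlapped. In WT cultures at day 0, Pth1r led with 15.2 ± 9.6 CPM per kb and Nr3c1 followed with 13.1 ± 5.0 (SD, n = 3), again with overlap. From day 10 on Pth1r stood first in both genotypes, without overlap with Nr3c1 in HBM cultures on days 10, 15 and 21 and in WT cultures on day 21. Ghr and Vdr overlapped in every group. Lepr overlapped Vdr and Ghr at day 0 and lay below the ranges of both on days 15 and 21.

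Pth1r (chr9:110722085-110747145, minus strand, mm10), the receptor for parathyroid hormone and for parathyroid hormone-related protein, was higher at days 10, 15 and 21 than at day 0 in every culture. In HBM cultures of batches 18, 19 and 21 its level was 25.5, 40.7 and 20.1 CPM on day 0, 176, 242 and 64.0 CPM on day 10, 201, 365 and 122 CPM on day 15, and 258, 275 and 172 CPM on day 21. In the WT cultures of the same batches its level was 27.7, 76.9 and 28.8 CPM on day 0, 89.2, 136 and 52.5 CPM on day 10, 115, 253 and 67.1 CPM on day 15, and 155, 261 and 90.3 CPM on day 21. Batch 19 was the highest on every day in both genotypes and batch 21 the lowest from day 10 on. In HBM cultures, days 10 and 0 did not overlap, whereas in WT cultures the batch 19 library of day 0 lay above the batch 21 libraries of days 10 and 15.

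**Figure D2:**
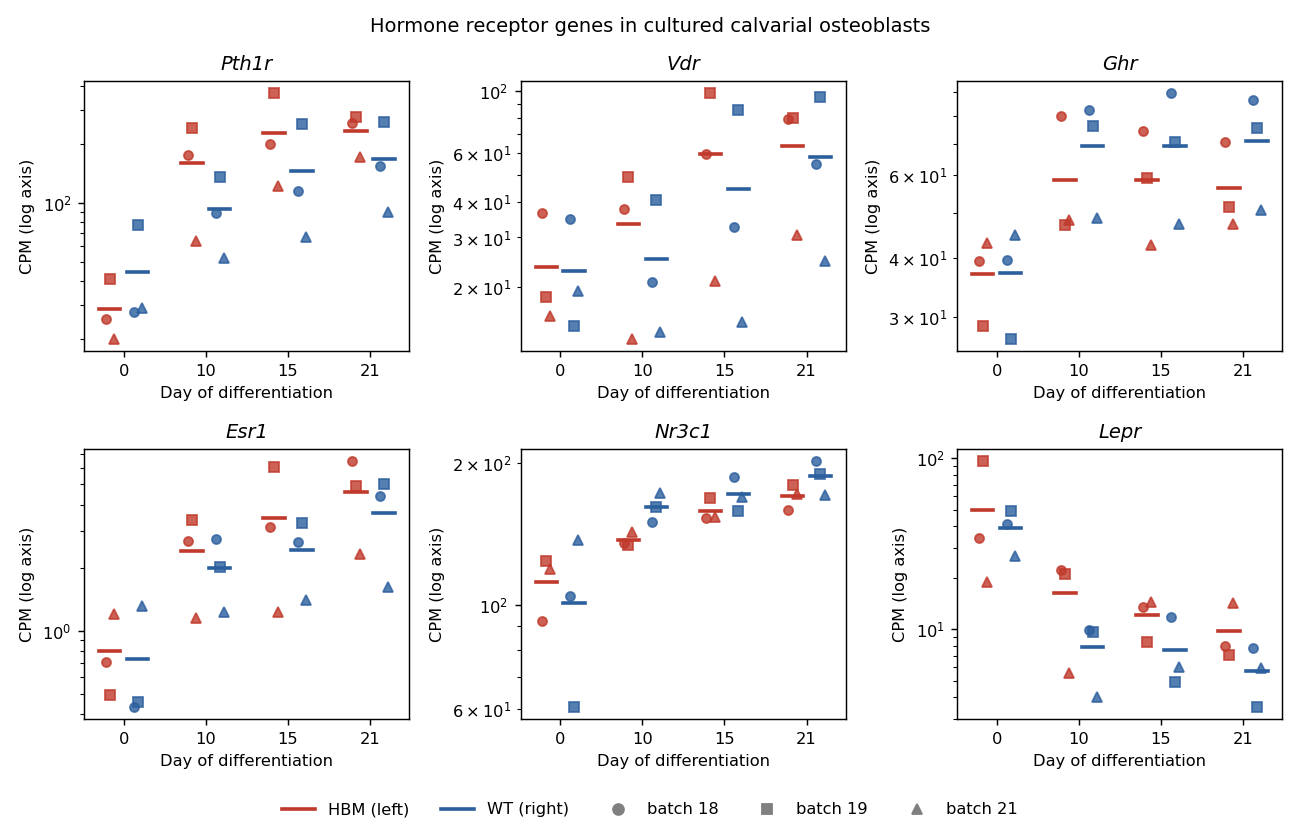
CPM of each receptor gene (log axis) by day of differentiation, HBM left of WT at each day. Points are libraries, with the symbol giving the batch, and lines are means of 3. Pth1r is higher and Lepr lower at day 10 than at day 0 in every culture, and the batch 21 libraries lie lowest for Pth1r, Vdr and Esr1 from day 10 on.

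The change of Pth1r from day 0 to day 10 was 2.48 ± 0.61 on the log2 scale in HBM cultures (adjusted p = 0.00648, edgeR's quasi-likelihood test with Benjamini-Hochberg adjustment over all genes tested, SE given), with a rise of 3.19-fold to 6.92-fold in 3 of 3 cultures. In WT cultures it was 1.06 ± 0.58 (adjusted p = 0.190, edgeR), with 1.77-fold to 3.22-fold in 3 of 3 cultures. With the culture as a replicate block the WT change was 1.11 ± 0.22 and passed the test (adjusted p = 0.00124, edgeR). In that blocked fit 19.7% of all genes passed as higher and 38.5% passed in either direction. From day 10 to day 21 the fitted change was 0.55 ± 0.58 in HBM and 0.86 ± 0.58 in WT cultures (adjusted p at least 0.999, edgeR). All 6 cultures stood higher at day 21, by 1.14-fold to 2.68-fold in HBM and 1.72-fold to 1.91-fold in WT. Ordered by mean, the groups ran from HBM day 21, at 235 ± 56 CPM, to HBM day 0, at 28.8 ± 10.7 CPM (SD, n = 3), and the ranges of neighbours in that order overlapped at every step. Of the exon bases of Pth1r, 95 (3.25%) also lie in Myl3 on the opposite strand, which was at 0.137 to 1.43 CPM.

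In HBM cultures 26.5% of the 16592 genes passed the test between day 10 and day 0, 14.1% higher and 12.4% lower at day 10. In WT cultures 26.2% did, 12.2% higher and 14.1% lower. Against these shares, 2 of 6 receptors passed in HBM cultures (Pth1r higher, Lepr lower) and 3 of 6 in WT cultures (Ghr and Nr3c1 higher, Lepr lower). The median log2 change of the 6 receptors was 0.58 in HBM and 0.79 in WT cultures, against 0.00 and -0.02 over all genes tested.

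**Figure D3:**
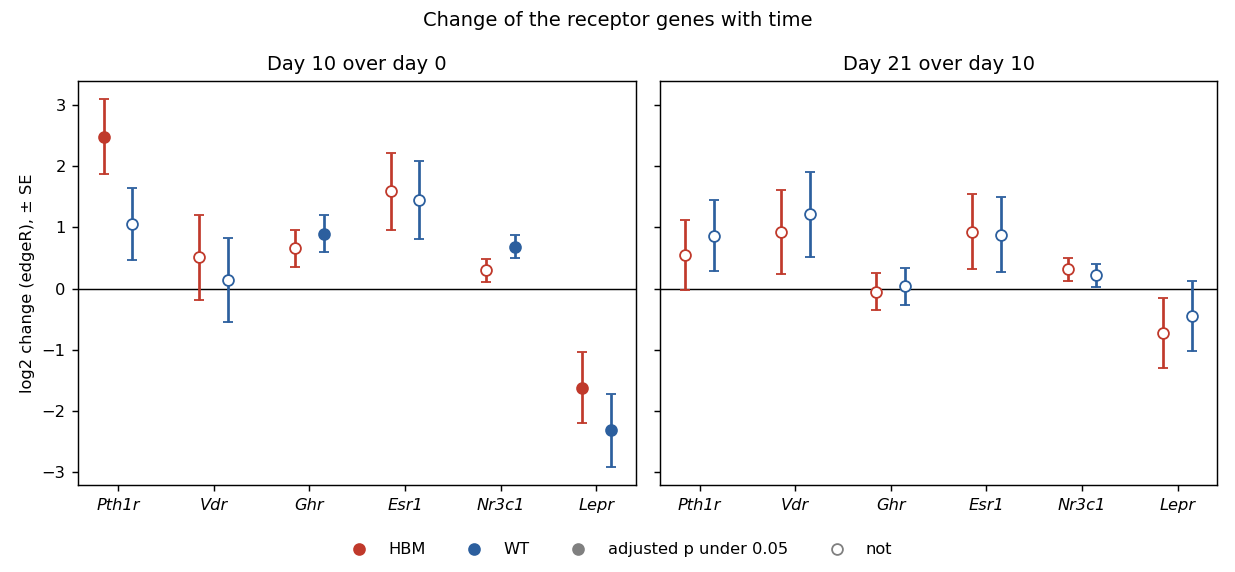
Fitted log2 change of each receptor gene from day 0 to day 10 (left) and from day 10 to day 21 (right), with SE, HBM left of WT; filled points passed the adjusted p threshold of 0.05. Between days 10 and 0 the filled points are Pth1r and Lepr in HBM and Ghr, Nr3c1 and Lepr in WT, and none is filled between days 21 and 10.

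Lepr (chr4:101717404-101815352, plus strand), the leptin receptor, was the only one of the 6 to fall. HBM cultures of batches 18, 19 and 21 held 34.2, 96.3 and 18.8 CPM at day 0, 22.1, 21.0 and 5.55 CPM at day 10, 13.5, 8.43 and 14.4 CPM at day 15, and 7.99, 7.05 and 14.2 CPM at day 21. WT cultures held 41.5, 49.1 and 26.7 CPM at day 0, 9.92, 9.59 and 4.02 CPM at day 10, 11.8, 4.95 and 6.06 CPM at day 15, and 7.78, 3.52 and 5.91 CPM at day 21. Every culture was lower at day 10 than at day 0, but the HBM batch 21 culture, already lowest at day 0, overlapped the day 10 values of the other HBM cultures and was the highest at days 15 and 21. In WT cultures no library from day 10 on reached any day 0 library.

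The log2 change of Lepr between days 10 and 0 was -1.62 ± 0.58 in HBM cultures (adjusted p = 0.0450, edgeR) and -2.32 ± 0.59 in WT cultures (adjusted p = 0.00824, edgeR). The HBM call rests on few libraries. Without the day 0 library of batch 19 the change was -0.71 (adjusted p = 0.377, edgeR). The call was also lost when the day 0 library of batch 18 or any 1 of the 3 day 10 libraries was left out, with adjusted p between 0.0547 and 0.152. The WT call held at each single library left out, with adjusted p from 0.00624 to 0.0402 (edgeR). Of the 6 markers listed for Lepr-expressing marrow stroma, the summed level was 426 to 934 CPM in HBM and 773 to 1195 CPM in WT cultures at day 10, versus 294 to 374 CPM in HBM and 321 to 423 CPM in WT cultures at day 0, so the list's sum was higher where Lepr was lower.

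Leptin's own gene was nearly absent. Lep had 0 counts in all day 0 libraries and at most 0.976 CPM later. Leprot, which shares its promoter region with Lepr in humans and encodes a separate protein that affects receptor trafficking, was at 143 ± 3 CPM in HBM cultures and 144 ± 4 CPM in WT cultures at day 10, versus 130 ± 18 and 145 ± 25 CPM at day 0 (SD, n = 3). Of 14 leptin signalling genes, 1 rose and 5 fell between days 10 and 0 in HBM cultures, and 1 rose and 4 fell in WT cultures. Over all genes, 26.5% passed in HBM and 26.2% in WT cultures. The list's median log2 change was -0.16 in HBM and -0.20 in WT cultures, against 0.00 and -0.02 over all genes.

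Among those that fell were Stat3, the transcription factor that leptin receptors activate, by 0.60 ± 0.10 on the log2 scale in HBM and 0.54 ± 0.10 in WT cultures (adjusted p = 0.000329 and 0.000725, edgeR). Socs3, a feedback inhibitor of the receptor, fell by 0.999 ± 0.272 in HBM and 1.25 ± 0.27 in WT cultures (adjusted p = 0.0118 and 0.00294, edgeR). Leprotl1, a relative of Leprot, fell by 0.42 ± 0.11 and 0.67 ± 0.12, and Ptpn2, a phosphatase that dampens JAK signalling, by 0.33 ± 0.11 and 0.54 ± 0.11, in HBM and WT cultures in turn. Irs2, an adaptor of insulin receptor signalling, fell by 0.60 ± 0.16 in HBM cultures and changed by -0.23 ± 0.16 in WT cultures, where it did not pass (adjusted p = 0.299, edgeR).

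Ghr (chr15:3317760-3583492, minus strand), the growth hormone receptor, was higher at day 10 than at day 0 in every culture. HBM cultures of batches 18, 19 and 21 held 39.5, 28.8 and 43.2 CPM at day 0, 80.2, 47.0 and 48.2 CPM at day 10, 74.4, 59.1 and 42.7 CPM at day 15, and 70.7, 51.4 and 47.2 CPM at day 21. WT cultures held 39.7, 27.0 and 44.8 CPM at day 0, 82.5, 76.2 and 48.8 CPM at day 10, 89.4, 70.7 and 47.2 CPM at day 15, and 86.6, 75.7 and 50.5 CPM at day 21. Batch 21 was the highest at day 0 and hardly moved, with 1.12-fold in HBM and 1.09-fold in WT between days 10 and 0. Days 10 and 0 did not overlap in either genotype, and days 10, 15 and 21 overlapped.

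The log2 change of Ghr between days 10 and 0 was 0.66 ± 0.30 in HBM cultures (adjusted p = 0.115, edgeR) and 0.90 ± 0.30 in WT cultures (adjusted p = 0.0358, edgeR). The WT call was lost when any 1 of 4 libraries was left out, those of batches 18 and 19 at days 0 and 10, with adjusted p between 0.0656 and 0.130 (edgeR). Leaving out batch 21 was an alternative chosen after seeing the data, and it drops the batch in which Ghr moved least. The changes were then 0.90 ± 0.29 in HBM (adjusted p = 0.0501, edgeR) and 1.24 ± 0.30 in WT cultures (adjusted p = 0.0121, edgeR).

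Igf1, the growth factor that growth hormone induces, rose in both genotypes. It was at 112.6, 154 and 154 CPM in the HBM day 0 libraries of batches 18, 19 and 21. HBM cultures averaged 379 ± 50 CPM at day 10, 312 ± 52 CPM at day 15 and 269 ± 38 CPM at day 21 (SD, n = 3). WT cultures averaged 119 ± 30, 433 ± 22, 382 ± 25 and 364 ± 49 CPM on the same days. Igf1 rose by 1.43 ± 0.18 on the log2 scale in HBM and 1.86 ± 0.18 in WT cultures between days 10 and 0 (adjusted p = 4.91e-05 and 7.98e-06, edgeR). At day 21 the HBM libraries, at most 295 CPM, lay below all WT libraries, at least 308 CPM, with a log2 difference of -0.44 ± 0.18 that did not pass (unadjusted p = 0.0244, adjusted p = 1, edgeR).

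Of 19 tested genes of growth hormone signalling, 4 rose and 3 fell in HBM cultures between days 10 and 0, where 26.5% of all genes passed. In WT cultures 5 rose and 2 fell, beside 26.2% of all genes. The list's median log2 change was 0.15 in HBM and 0.18 in WT cultures. Igfals, which carries IGF1 in blood and is best known from liver, was at 7.37 ± 4.43 CPM in HBM and 10.7 ± 3.6 CPM in WT cultures at day 10, versus 0.312 ± 0.022 and 0.899 ± 0.837 CPM at day 0 (SD, n = 3), and rose in both (adjusted p = 0.000158 and 0.000526, edgeR). Stat5a, the transcription factor downstream of the receptor, rose by 0.61 ± 0.12 and 0.45 ± 0.12 on the log2 scale in HBM and WT cultures (adjusted p = 0.00128 and 0.0103, edgeR). Socs2, the main feedback inhibitor of GHR, changed by 1.16 ± 0.45 in HBM and 1.22 ± 0.45 in WT cultures and missed the threshold (adjusted p = 0.0621 and 0.0513, edgeR). It passed with the culture as a replicate block, at 1.09 ± 0.23 and 1.20 ± 0.23 (adjusted p = 0.00156 and 0.000804, edgeR). Cish, another inhibitor of the family, stood at 8.95 ± 2.01 CPM in HBM and 10.9 ± 2.5 CPM in WT cultures at day 10, versus 7.67 ± 1.44 and 9.498 ± 1.233 CPM at day 0, and did not pass.

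**Figure D4:**
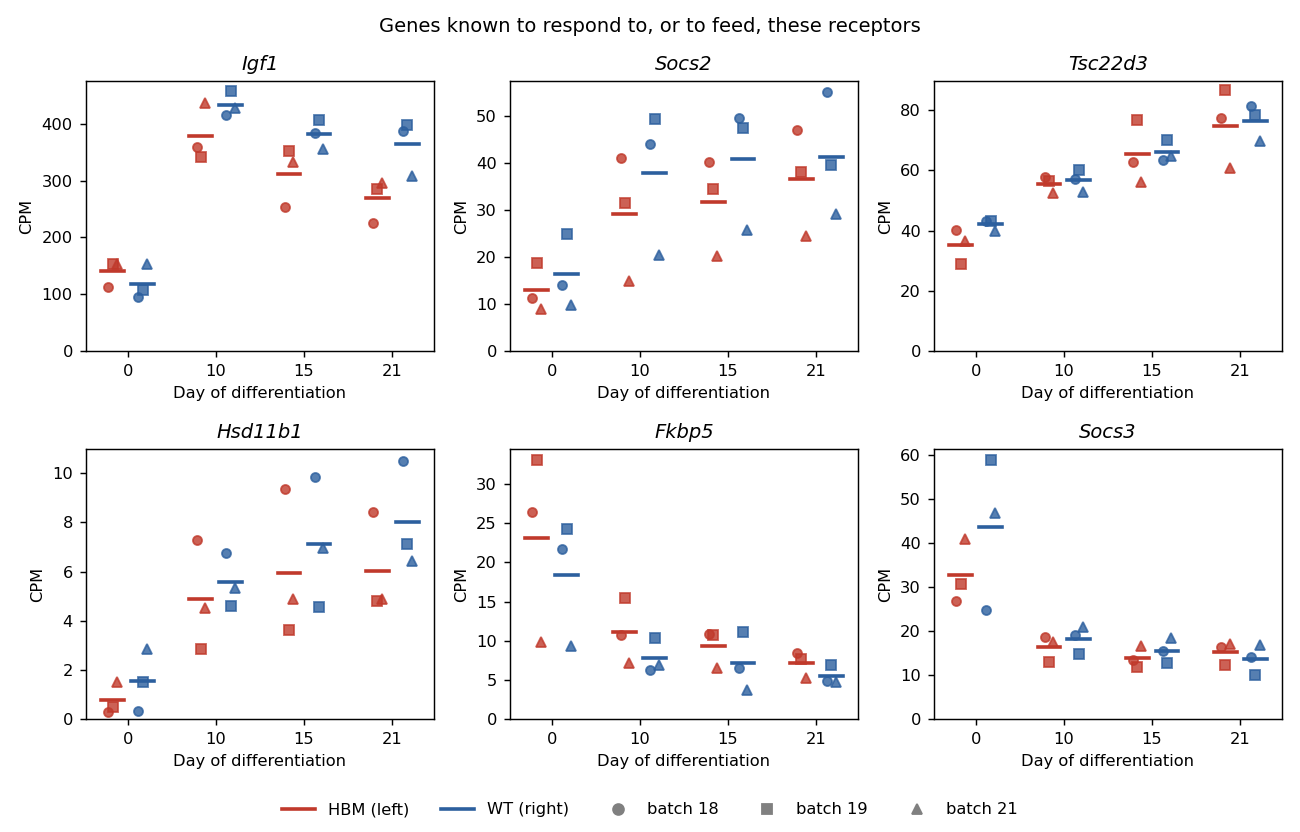
CPM of 6 genes (linear axes from 0) by day, HBM left of WT at each day, with libraries as points, batches as symbols and means of 3 as lines. Igf1, Hsd11b1 and Tsc22d3 were higher and Socs3 was lower at day 10 than at day 0 in both genotypes, and Socs2 and Fkbp5 passed the test only with a replicate block.

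Nr3c1 (chr18:39410545-39519421, minus strand), the glucocorticoid receptor, was higher at day 10 than at day 0 in every culture. HBM cultures of batches 18, 19 and 21 held 92.3, 124 and 119 CPM at day 0, 135, 134 and 143 CPM at day 10, 153, 168 and 154 CPM at day 15, and 159, 180.1 and 172 CPM at day 21. WT cultures held 104, 60.6 and 137 CPM at day 0, 149.9, 161 and 173 CPM at day 10, 187, 158 and 169.6 CPM at day 15, and 202, 189 and 171 CPM at day 21. The WT day 0 library of batch 19, the one richest in cartilage markers, was the lowest of all 24. Days 10 and 0 did not overlap in either genotype.

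The log2 change of Nr3c1 between days 10 and 0 was 0.30 ± 0.19 in HBM cultures (adjusted p = 0.262, edgeR) and 0.68 ± 0.19 in WT cultures (adjusted p = 0.0134, edgeR). With each single library left out in turn the WT change ran from 0.42 to 0.97, and its adjusted p stayed between 0.000607 and 0.0448 (edgeR). The order of groups ran from WT day 21, at 187 ± 16 CPM, to WT day 0, at 100.7 ± 38.4 CPM (SD, n = 3). Neighbours in that order overlapped except HBM day 15 over HBM day 10 and HBM day 10 over HBM day 0.

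Genes around glucocorticoid action moved in both directions. Hsd11b1, the enzyme that makes active glucocorticoid from inactive steroid inside cells, was at 4.89 ± 2.24 CPM in HBM and 5.57 ± 1.10 CPM in WT cultures at day 10, versus 0.764 ± 0.669 and 1.55 ± 1.26 CPM at day 0 (SD, n = 3). It rose by 2.69 ± 0.66 on the log2 scale in HBM and 1.85 ± 0.63 in WT cultures (adjusted p = 0.00625 and 0.0375, edgeR). Tsc22d3 (GILZ), a standard target gene of the receptor, rose by 0.65 ± 0.14 and 0.43 ± 0.14 (adjusted p = 0.00205 and 0.0257, edgeR). Fkbp5, another standard target, went the other way, with 11.1 ± 4.1 CPM in HBM and 7.86 ± 2.21 CPM in WT cultures at day 10 against 23.1 ± 11.9 and 18.4 ± 8.0 CPM at day 0, and missed the threshold (adjusted p = 0.0918 and 0.0537, edgeR). With the culture as a replicate block Fkbp5 passed as lower at day 10, by -0.98 ± 0.25 in HBM and -1.16 ± 0.25 in WT cultures (adjusted p = 0.00607 and 0.00224, edgeR).

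Of 21 tested genes of glucocorticoid signalling, 4 rose and 5 fell in HBM cultures, where 26.5% of all genes passed. In WT cultures 5 rose and 6 fell, beside 26.2% of all genes. The list's median log2 change was -0.25 in HBM and -0.43 in WT cultures. The chaperones that hold the unliganded receptor ready were among those that fell, Hsp90aa1 by 0.96 ± 0.12 in HBM and 0.81 ± 0.12 in WT cultures, Hsp90ab1 by 0.66 ± 0.10 and 0.62 ± 0.10, and their cochaperone Stip1 by 0.62 ± 0.12 and 0.77 ± 0.12 (adjusted p at most 0.00134, edgeR). Sgk1, a kinase gene induced by glucocorticoids and by serum, fell by 1.59 ± 0.21 and 1.42 ± 0.21 (adjusted p = 7.69e-05 and 0.000176, edgeR). Zbtb16, a zinc finger gene induced by glucocorticoids, rose to 0.853 ± 0.373 CPM in HBM and 0.662 ± 0.184 CPM in WT cultures at day 10, versus 0.0490 ± 0.0208 and 0.0893 ± 0.1175 CPM at day 0 (adjusted p = 0.00108 and 0.00625, edgeR).

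Vdr (chr15:97854425-97910630, minus strand), the vitamin D receptor, differed more between batches than between days 10 and 0. HBM cultures of batches 18, 19 and 21 held 36.6, 18.4 and 15.7 CPM at day 0, 38.0, 49.4 and 13.04 CPM at day 10, 59.3, 97.9 and 21.0 CPM at day 15, and 79.6, 80.2 and 30.7 CPM at day 21. WT cultures held 34.8, 14.5 and 19.3 CPM at day 0, 20.8, 40.7 and 13.8 CPM at day 10, 32.8, 85.7 and 14.9 CPM at day 15, and 54.9, 94.6 and 24.7 CPM at day 21. From day 10 to day 21 every culture stood higher, by 1.62-fold to 2.36-fold in HBM and 1.79-fold to 2.64-fold in WT, but from day 10 on batch 21 stayed below the other batches and the groups overlapped. The log2 change between days 21 and 10 was 0.92 ± 0.69 in HBM and 1.21 ± 0.69 in WT cultures, and between days 10 and 0 it was 0.51 ± 0.69 and 0.13 ± 0.69, none of which passed (adjusted p at least 0.618, edgeR).

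Cyp24a1, the vitamin D-degrading enzyme and the most sensitive target of the receptor in most tissues, had at most 2 counts in any library and was not tested. Of 16 tested genes of vitamin D signalling, 2 rose and 3 fell between days 10 and 0 in each genotype. The share passing over all genes was 26.5% in HBM and 26.2% in WT cultures. The list's median log2 change was -0.02 in HBM and -0.10 in WT cultures. Bglap, the osteocalcin gene, which is induced by vitamin D in humans and is a marker of mature osteoblasts, was at 226 ± 182 CPM in HBM and 57.5 ± 70.3 CPM in WT cultures at day 10, versus 0.0999 ± 0.0591 and 0.133 ± 0.078 CPM at day 0 (SD, n = 3; adjusted p = 0.000474 and 0.00152, edgeR). Rxrg, one of the partner receptors of VDR, rose to 0.517 ± 0.370 and 0.549 ± 0.180 CPM at day 10 in HBM and WT cultures, against 0.0485 ± 0.0198 and 0.0507 ± 0.0203 CPM at day 0 (adjusted p = 0.00670 and 0.00588, edgeR). Lrp2, which takes up vitamin D bound to its carrier protein in kidney, fell by 3.97 ± 0.57 on the log2 scale in HBM and 2.47 ± 0.53 in WT cultures, and the coactivator Med1 by 0.64 ± 0.13 and 0.44 ± 0.13 (adjusted p at most 0.0159, edgeR). Spp1, the osteopontin gene, fell by 2.07 ± 0.59 in WT cultures (adjusted p = 0.0153, edgeR) and changed by -1.22 ± 0.57 in HBM cultures (adjusted p = 0.125, edgeR).

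Esr1 (chr10:4611593-5005614, plus strand), the oestrogen receptor alpha, was the least abundant and its course depended on the batch. HBM cultures of batches 18, 19 and 21 held 0.710, 0.493 and 1.19 CPM at day 0, 2.67, 3.38 and 1.15 CPM at day 10, 3.12, 6.05 and 1.22 CPM at day 15, and 6.45, 4.94 and 2.33 CPM at day 21. WT cultures held 0.432, 0.455 and 1.31 CPM at day 0, 2.75, 2.01 and 1.22 CPM at day 10, 2.65, 3.25 and 1.40 CPM at day 15, and 4.38, 5.001 and 1.61 CPM at day 21. Batch 21 was the highest at day 0 and the lowest on every later day in both genotypes. The log2 change between days 10 and 0 was 1.59 ± 0.63 in HBM and 1.45 ± 0.63 in WT cultures and missed the threshold (adjusted p = 0.0716 and 0.0983, edgeR). In batches 18 and 19 alone, an alternative chosen after seeing the data, it was 2.32 ± 0.36 and 2.40 ± 0.37 and passed in both (adjusted p = 0.00205 and 0.00158, edgeR).

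Of 12 tested genes of oestrogen signalling none passed the test between days 10 and 0 in edgeR's main model. Over all genes, 26.5% did in HBM and 26.2% in WT cultures. DESeq2 called 3 genes of the list in HBM and 1 in WT cultures. The list's median log2 change was 0.14 in HBM and 0.29 in WT cultures. Greb1, a target gene of the receptor in breast cells, was at 2.06 ± 1.86 CPM in HBM and 2.52 ± 1.39 CPM in WT cultures at day 10, versus 0.463 ± 0.204 and 0.546 ± 0.205 CPM at day 0 (adjusted p = 0.0592 and 0.0524, edgeR). With the culture as a replicate block it passed in both genotypes, with log2 changes of 1.68 ± 0.61 and 2.05 ± 0.58 (adjusted p = 0.0414 and 0.0120, edgeR). Pgr, the progesterone receptor and another target, had at most 28 counts in any library.

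Genes of parathyroid hormone signalling moved in both directions. Pthlh, the locally made ligand, was at most 0.595 CPM in any library. Of 31 tested genes of the list, 7 rose and 4 fell between days 10 and 0 in HBM cultures, where 26.5% of all genes passed. In WT cultures 5 rose and 2 fell, beside 26.2% of all genes. All genes, too, passed in both directions. The list's median log2 change was -0.09 in HBM and 0.07 in WT cultures. Rgs2, an inhibitor of G protein signalling that parathyroid hormone induces in osteoblasts, was at 21.0 ± 1.0 CPM in HBM and 17.2 ± 3.4 CPM in WT cultures at day 10, versus 3.60 ± 1.88 and 4.30 ± 3.42 CPM at day 0 (SD, n = 3; adjusted p = 0.000328 and 0.00175, edgeR). Mef2c, a transcription factor that drives Sost in osteocytes, rose by 3.11 ± 0.67 and 2.51 ± 0.65 on the log2 scale in HBM and WT cultures, and Hdac5, which represses MEF2C, by 0.95 ± 0.11 and 0.78 ± 0.11 (adjusted p at most 0.00887, edgeR). Arrb1, the beta-arrestin that desensitises the receptor, rose by 2.21 ± 0.52 and 1.89 ± 0.52 (adjusted p = 0.00503 and 0.0119, edgeR). Prkar1a, a regulatory subunit of protein kinase A, fell by 0.49 ± 0.13 and 0.50 ± 0.13 (adjusted p = 0.0112 and 0.00976, edgeR).

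No gene passed the test between day 21 and day 10 in HBM or WT cultures (0% of 16592; 535 and 707 genes had an unadjusted p under 0.05 in edgeR, and DESeq2 called 3 and 18), and none of the 6 receptors did, with 0 of 6 under 0.05 unadjusted. With the culture as a replicate block 16 and 92 genes passed, 0.0964% and 0.554%, and still no receptor. The unadjusted p of Pth1r in that blocked fit was 0.00544 in HBM and 0.00162 in WT cultures (edgeR). That of Vdr was 0.0346 and 0.0164, and the other receptors were not under 0.05. How many of all genes fell under 0.05 unadjusted there is not given here. Esr1, Vdr and Pth1r stood higher at day 21 than at day 10 in all 3 HBM and all 3 WT cultures. Lepr stood higher at day 21 in 1 of 3 HBM and 1 of 3 WT cultures, both of batch 21.

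The comparison of HBM with WT asks whether the receptors differ with genotype at a given stage. At day 0, day 10, day 15 and day 21, and for counts summed over the days, 0% of genes passed and 0 of 6 receptors did in edgeR without a block. There, 701, 476, 347, 356 and 555 genes had an unadjusted p under 0.05, and no receptor was among them. DESeq2 called 0, 2, 0, 1 and 25 genes in these comparisons and no receptor. With the batch as a replicate block 21, 217, 55 and 40 genes passed on the 4 days, 0.127%, 1.31%, 0.331% and 0.241% of those tested (0.0904% as lower on day 15 and 0.0844% as lower on day 21), again with no receptor, and none passed for the summed counts. In that blocked fit the unadjusted p of Pth1r was 0.0143, 0.00206, 0.00146 and 0.00712 on the 4 days (edgeR). Lepr was under 0.05 unadjusted on days 10, 15 and 21 (0.00876, 0.0332 and 0.0316, edgeR). So were Vdr on day 15 (0.0207) and Ghr on day 21 (0.0227). For the summed counts the unadjusted p was 0.00128 for Pth1r, 0.0299 for Esr1 and 0.0404 for Vdr (edgeR). How many of all genes fell under 0.05 unadjusted there is not given here.

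**Figure D5:**
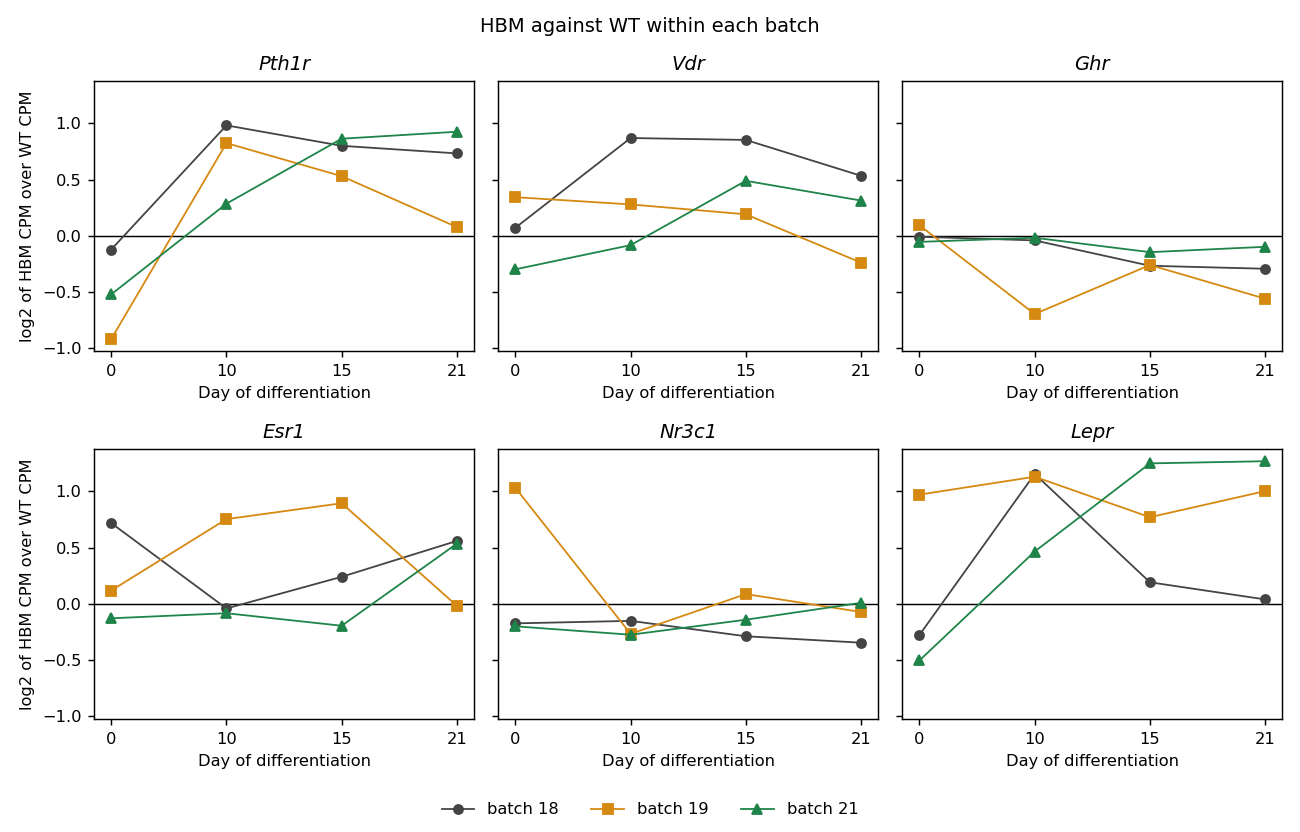
Log2 ratio of CPM in the HBM culture to CPM in the WT culture of the same batch, by day, for each receptor gene; the line at 0 marks equal levels. For Pth1r all 3 batches lie below 0 at day 0 and above it from day 10 on, and from day 10 on all lie above 0 for Lepr and below 0 for Ghr. The days share the same cultures.

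Within batches, Pth1r differed in 1 direction at day 0 and in the other from day 10 on. The HBM culture held less than the WT culture of its batch at day 0, by ratios of 0.919, 0.529 and 0.697 in batches 18, 19 and 21, and more on the later days. The ratio was 1.98, 1.77 and 1.22 at day 10, 1.74, 1.44 and 1.82 at day 15, and 1.66, 1.06 and 1.90 at day 21. The fitted log2 differences were -0.63 ± 0.58 at day 0, 0.79 ± 0.58 at day 10, 0.66 ± 0.58 at day 15 and 0.48 ± 0.58 at day 21 (adjusted p at least 0.918, edgeR). With the batch as a replicate block the differences on days 10, 15 and 21 were 0.70 ± 0.18, 0.73 ± 0.18 and 0.58 ± 0.18, and their adjusted p was 0.0832, 0.0936 and 0.177 (edgeR). For counts summed over the days the blocked difference was 0.65 ± 0.11 (adjusted p = 0.0863, edgeR).

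The test of the difference itself, whether Pth1r changed more between days 10 and 0 in HBM than in WT cultures, gave a log2 difference of 1.42 ± 0.82 (unadjusted p = 0.101, adjusted p = 0.999937, edgeR), and 1.26 ± 0.31 with the culture as a replicate block (unadjusted p = 0.00103, adjusted p = 0.674, edgeR). In that comparison 0% of genes passed (537 had an unadjusted p under 0.05), as in the test of whether the genotype difference changed with day (103). A summed level does not give the direction of each marker in it. The summed level of the 7 osteoblast markers was higher in the HBM culture of every batch on every day. On day 10 it was 72540 to 167229 CPM in HBM and 51012 to 93574 CPM in WT cultures. On day 21 it was 101078 to 186686 CPM in HBM and 52651 to 112406 CPM in WT cultures. At day 0 it was 39235 to 57900 CPM in HBM and 30478 to 52756 CPM in WT cultures. The part of these markers in the Pth1r difference was not tested.

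Lepr was higher in the HBM culture in 9 of 9 pairs from day 10 on, by 1.03-fold to 2.41-fold. These pairs are 3 pairs of cultures sampled on 3 days, and the share of all genes with such agreement is not given here. The fitted log2 differences of Lepr were 1.05 ± 0.57 at day 10, 0.67 ± 0.57 at day 15 and 0.77 ± 0.58 at day 21 (adjusted p at least 0.999971, edgeR). Without batch 21, an alternative chosen after seeing the data, the day 10 difference was 1.14 ± 0.52. With the batch as a replicate block it was 0.94 ± 0.30 (adjusted p = 0.154, edgeR). At day 0 the ratio was 0.825, 1.96 and 0.705 in batches 18, 19 and 21, so the direction differed between batches there. The summed level of the 6 markers of Lepr-expressing marrow stroma was lower in the HBM culture in 9 of 9 pairs from day 10 on, opposite to Lepr. On day 21 it was 783 to 1303 CPM in HBM and 1499 to 1867 CPM in WT cultures.

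Ghr was lower in the HBM culture in 9 of 9 pairs from day 10 on, with ratios from 0.617 to 0.988. At day 10 the ratio was 0.972 in batch 18 and 0.988 in batch 21, close to equal levels. Such pairs share cultures across days, and the share of all genes with such agreement is not given here. The fitted log2 differences of Ghr were -0.24 ± 0.30, -0.24 ± 0.30 and -0.33 ± 0.30 on days 10, 15 and 21 (adjusted p at least 0.999971, edgeR). The summed level of the marrow stroma markers was lower in the same 9 pairs, and the part of these markers in the Ghr difference was not tested. Nr3c1 was lower in the HBM culture in 7 of 9 such pairs, with ratios from 0.787 to 1.06 and log2 differences of -0.23 ± 0.19, -0.12 ± 0.19 and -0.14 ± 0.19. Vdr was higher in 7 of 9 pairs, with ratios from 0.847 to 1.83, and Esr1 in 5 of 9, with ratios from 0.873 to 1.86. With the batch as a replicate block the standard errors on day 10 were smaller for every receptor, though for Nr3c1 only 0.185 against 0.188. They were 0.12 for Ghr, 0.18 for Pth1r and Nr3c1, 0.19 for Vdr, 0.24 for Esr1 and 0.30 for Lepr on the log2 scale. After adjustment no receptor passed.

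Some genes around the receptors passed between HBM and WT with the batch as a replicate block, though not in edgeR's main model. Over all genes, 1.31% passed at day 10 and 0.241% at day 21 in that blocked fit. At day 10, Bglap was higher in HBM cultures by 2.51 ± 0.38 on the log2 scale (adjusted p = 0.0138), Spp1 by 0.97 ± 0.18 (adjusted p = 0.0289) and Glp1r, the receptor for the gut hormone GLP-1, by 2.32 ± 0.43 (adjusted p = 0.0281, all edgeR). Glp1r was at 0.670 ± 0.264 CPM in HBM and 0.133 ± 0.076 CPM in WT cultures at day 10, versus 0.182 ± 0.047 and 0.199 ± 0.132 CPM at day 0 (SD, n = 3). Hsd17b1, an enzyme that makes oestradiol, was higher in HBM cultures at day 21 by 1.66 ± 0.30 (adjusted p = 0.0469, edgeR). In edgeR's main model 0 genes of any of the 7 lists passed between HBM and WT on any day.

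The 26 tested genes of 34 other hormone receptors give the setting for the 6. Between days 10 and 0, 5 rose and 3 fell in HBM cultures and 5 rose and 2 fell in WT cultures. The share passing over all genes was 26.5% in HBM and 26.2% in WT cultures. The list's median log2 change was 0.15 in HBM and 0.18 in WT cultures. Thra, the thyroid hormone receptor alpha, was at 206 ± 39 CPM in HBM and 237 ± 36 CPM in WT cultures at day 10, versus 96.1 ± 22.6 and 110.4 ± 21.3 CPM at day 0 (SD, n = 3), and rose by 1.10 ± 0.21 on the log2 scale in both (adjusted p = 0.00109 and 0.00106, edgeR). Pparg, the fat cell receptor, rose by 2.06 ± 0.42 in HBM and 1.87 ± 0.42 in WT cultures (adjusted p = 0.00191 and 0.00351, edgeR), beside a summed level of 7 adipocyte markers, Pparg among them, of 270 to 583 CPM in HBM and 234 to 422 CPM in WT cultures at day 10, versus 20.0 to 36.4 and 21.3 to 49.8 CPM at day 0. Igf1r, the receptor for IGF1, fell to 60.0 ± 11.8 CPM in HBM and 69.6 ± 19.1 CPM in WT cultures at day 10, versus 159.9 ± 38.2 and 139 ± 55 CPM at day 0 (adjusted p = 0.00357 and 0.0256, edgeR), while its ligand gene Igf1 rose. Rarg, a retinoic acid receptor, fell by 0.24 ± 0.08 and 0.34 ± 0.08 (adjusted p = 0.0352 and 0.00602, edgeR). Nr3c2, the mineralocorticoid receptor, which also binds glucocorticoids, rose by 1.68 ± 0.49 in WT cultures (adjusted p = 0.0175, edgeR) and changed by 1.24 ± 0.49 in HBM cultures (adjusted p = 0.0683, edgeR).

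The genes whose log2 CPM followed each receptor most closely over the 24 libraries are given as a description, since the libraries share cultures, batches and days. Pth1r went with Gprc5c (Pearson r = 0.980), Chst13 (0.971) and Grrp1 (0.967), the first an orphan G protein-coupled receptor and Chst13 a sulfotransferase of chondroitin. Ghr went with A930004D18Rik (r = 0.943), with the prolactin receptor gene Prlr, a relative of Ghr in the same family (0.936), and with Gsta4 (0.923), a glutathione transferase. Esr1 went with Fap (0.970), a cell-surface protease of activated fibroblasts, with the leukaemia inhibitory factor receptor gene Lifr (0.957) and with Adamts17 (0.953).

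Vdr went with Ppp2r5a (r = 0.948), a subunit of protein phosphatase 2A, with Spon1 (0.911) and with Gm43231 (0.910). Nr3c1 went with Itprid2 (r = 0.952), the zinc finger gene Zbtb20 (0.949) and Phactr2 (0.946). Lepr went with Lmna (r = 0.925), which encodes the nuclear lamins A and C, with Klrg2 (0.924) and with Sh3rf1 (0.924). These r values were the highest of 16592 genes for each receptor, and no gene was among the 3 closest of more than 1 receptor.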

How the data were processed

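The deposited values are raw read counts per gene, made by the authors with cutadapt 3.4, STAR 2.7.8a and featureCounts of Subread 2.0.1 on mm10, per the submitters' processing notes. Those notes give neither strandedness nor the annotation used; exon lengths came from the GENCODE annotation of GRCm38, and 68 unmatched rows, holding at most 0.00337% of a library's counts, stayed in the table. Counts were scaled by TMM, filtered with filterByExpr and tested with edgeR 4.0.16 (quasi-likelihood, 8 groups, Benjamini-Hochberg adjustment, threshold 0.05) in R 4.3.3. DESeq2 1.42.0, a replicate block and other settings were alternatives. CPM values use TMM-scaled library sizes. The edgeR steps were tested on simulated counts drawn independently for each library, without the shared cultures and batches of the real data.

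The receptors, gene lists and markers were chosen with earlier results of these data known. The text names the receptors, fixed readout genes, from each list up to 4 called genes of lowest p per comparison, and the 3 genes most correlated with each receptor; Hsd17b1 and the genes of the closing observations were named after its values were seen. Batch numbers pair the cultures: deviations from group means correlated at 0.542 to 0.815 between HBM and WT libraries of 1 batch and day, against at most 0.127 between batches, and each library correlated best with its own number in 12 of 12 cases. Cultures are the replicates.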

Additional observations from a re-analysis of the deposited data

How the results depend on the processing

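Esr1 had the fewest counts of the receptors, 16 in its lowest library, and depth was not varied here. Genes called at day 10 against day 0 were 4404 in HBM and 4349 in WT cultures, and 2087 and 472 when only the libraries compared were fitted, which uses fewer samples. With single libraries left out they ran from 2809 to 4415 and from 2866 to 5484. Receptors called there were 2 and 3, and fitting only the compared libraries left 1 and 1; without the low-count filter 1 was left in HBM cultures, Lepr being lost at adjusted p = 0.0582. With single libraries left out they ran from 1 to 2 in HBM and 2 to 4 in WT cultures. Ghr and Nr3c1 were lost in WT cultures when only the compared libraries were fitted (adjusted p = 0.118 and 0.214), and DESeq2 added Esr1 in HBM cultures (adjusted p = 0.0342). Esr1 was also added without the HBM day 10 library of batch 21 (adjusted p = 0.0440) and, in WT cultures, when the batch 21 library of day 0 was left out (adjusted p = 0.0289). Where edgeR called 0 genes, the replicate block called 21, 217, 55 and 40 for HBM against WT on days 0, 10, 15 and 21, and 16 and 92 for day 21 against day 10 in HBM and WT cultures. DESeq2 called 2 and 1 on days 10 and 21, 25 in the summed counts, and 3 and 18 between days 21 and 10. The block added Pth1r in WT cultures between days 10 and 0 and changed no other receptor call.

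Some differences, none of them called, changed sign. Ghr between HBM and WT at day 0 was 0.0014 under RLE size factors, 0.0098 with the block, 0.011 with only the compared libraries, 0.0015 with DESeq2 and 0.026 in batches 18 and 19 alone, against -0.0013 as reported. Vdr at day 0 was -0.051 with 1 block over all days, Vdr in WT cultures between days 10 and 0 was -0.13 with the block, and the genotype difference in the Esr1 change was -0.083 in batches 18 and 19 alone. With single libraries left out, the day 0 log2 difference of HBM over WT ran from -0.96 to 0.026 for Pth1r, -0.44 to 0.48 for Vdr, -0.19 to 0.16 for Ghr, -0.28 to 0.84 for Esr1, -0.11 to 0.44 for Nr3c1 and -0.56 to 0.74 for Lepr. That of Esr1 ran from -0.048 to 0.61 at day 10, -0.15 to 0.91 at day 15 and -0.037 to 0.65 at day 21, and that of Vdr from -0.14 to 1.31 at day 15, -0.24 to 0.69 at day 21 and -0.070 to 0.75 in the summed counts. Vdr in WT cultures between days 10 and 0 ran from -0.40 to 0.57, Ghr between days 21 and 10 from -0.26 to 0.25 in HBM and -0.16 to 0.23 in WT cultures, and the genotype difference in the day 10 change from -0.065 to 0.91 for Vdr and -0.57 to 0.54 for Esr1. The cause of these changes was not tested. Pth1r in HBM cultures between days 10 and 0 kept its call with each library left out, with log2 changes of 2.08 to 2.85.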

Other observations

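Several hormone receptors outside the 6 were close to absent. Calcr, the calcitonin receptor of osteoclasts, averaged 0 CPM in HBM and WT cultures at days 0 and 10, and Fshr and Casr, the receptors for follicle-stimulating hormone and calcium, stayed at or below 0.0111 CPM on average in each group. The adiponectin receptor genes Adipor1 and Adipor2 were at 184 ± 42 and 78.1 ± 2.5 CPM in HBM cultures and 172 ± 31 and 75.6 ± 1.4 CPM in WT cultures at day 10 (SD, n = 3). Prlr, the prolactin receptor gene, averaged 6.18 ± 6.23 CPM in HBM and 8.82 ± 5.76 CPM in WT cultures at day 10, against 0.306 ± 0.326 and 0.555 ± 0.464 CPM at day 0. These genes were named after their values were seen.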
